A study of Mus musculus with 6 samples.

Results

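The genes described here are 39 members of the interferon response and of class I antigen presentation, chosen by gene symbol from a table of 35970 symbols. The members comprise 18 induced antiviral effectors, 6 transcription factors and feedback regulators, 3 proteins of RNA sensing, 7 interferon-inducible GTPases and 5 proteins of antigen presentation. They were measured in ribosome-bound RNA of mouse liver, in 3 Neurl1b CRISPRi libraries and 3 non-targeting libraries, each from its own mouse. All members had a TPM above 0, and 36 of the 39 had a mean TPM of at least 1 and were tested.

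Interferons are secreted by infected or activated cells and bind receptors whose JAK kinases phosphorylate STAT proteins. Type I interferons act mainly through a complex with Stat2 and Irf9 that binds the interferon-stimulated response element, while interferon gamma acts mainly through the gamma-activated site. In liver, hepatocytes and Kupffer cells both respond, and the response includes antiviral proteins, GTPases that attack the vacuoles of intracellular parasites, and the machinery that loads peptides on class I molecules.

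All mice were Fah-/-, so they lacked the last enzyme of tyrosine breakdown and had been kept alive with nitisinone at 7.5 µg/mL, and all carried dCas9, a Cas9 without cutting activity that represses a gene where a guide places it (CRISPR interference, CRISPRi). Each received 10 µg of a transposon plasmid with Fah, the ribosomal protein L10a fused to GFP, and a guide RNA that was directed at Neurl1b in the CRISPRi group and at no gene in the non-targeting group. The plasmid was given by hydrodynamic tail vein injection together with an AAV8 virus that carries Cre behind the hepatocyte promoter TBG. Nitisinone was then withheld, so that only hepatocytes with the plasmid could thrive, and livers were collected 4 weeks later. Tagged ribosomes were captured from 400 mg of lysed liver by their GFP (a TRAP experiment, for translating ribosome affinity purification), and polyadenylated RNA was sequenced. Strain, age and sex are not stated in the sources used here, and the labels describe the same procedure for both groups apart from the guide.

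Levels are given in TPM, which are corrected for the length of each transcript and scaled to the same total in every library, so the depth of each library is unknown and a low value has no counting interval. Between 17813 and 18680 symbols were above 0 in a library. The targeted gene Neurl1b, which encodes a ubiquitin ligase of Notch ligands, measured 0.295, 0.351 and 0.307 TPM in the CRISPRi mice, against 1.22, 0.897 and 0.688 TPM in the non-targeting mice, and the groups did not overlap (exact two-sided permutation p = 0.1, the smallest that 3 against 3 can give). Markers of hepatocytes summed to between 52647 and 68066 TPM in the CRISPRi libraries and to between 63701 and 106826 TPM in the non-targeting libraries. Markers of Kupffer cells and macrophages were also present, at 132 to 196 TPM in the CRISPRi and 89.0 to 163 TPM in the non-targeting libraries, with the mean of 12 of 12 markers higher in CRISPRi. For stellate cells the sums were 34.5 to 47.5 TPM in CRISPRi and 15.8 to 30.5 TPM in non-targeting libraries, with 8 of 8 markers higher in CRISPRi. The mean was also higher in CRISPRi for 7716 of all 10598 tested genes. None of these cell type markers was at 0 in a library, and their part in the results below was not tested. In RNA captured from lysed liver, fewer cells of a type, less RNA per cell and less carry-over in the capture cannot be told apart.

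The members' best known shared trait is a DNA element near their start sites, so the element is shown before the values. RefSeq promoters (GRCm38.p6, 250 bases before to 50 after the start) were found for 30 of the 39 members. The core of the interferon-stimulated response element, GAAANNGAAA on either strand, was in 18 of these 30 (60%), against 3.99% of 27025 genes and 3.44% of 32851 promoters of the same length. The gamma-activated site, TTCNNNGAA, which reads the same on both strands, was in 8 of the 30 (26.7%), against 9.55% of all genes and 8.30% of all promoters. In Ifitm3 and Bst2 the 2 motifs overlap. A match describes the letters only and shows no binding. The windows below are chosen for members that the results turn on (Rsad2 and Ifitm2), for the textbook interferon-stimulated genes Isg15 and Ifit1, for the 3 GTPases Igtp, Irgm2 and Gbp2 and for B2m. Each holds 50 bases before the start, 5′ to 3′ on the gene's strand, with every match to the core in capitals. A core written as TTTCNNTTTC is the same core on the other strand, and in Isg15 overlapping cores form a single run of capitals.
Rsad2, chr12:26456543-26456592, minus strand: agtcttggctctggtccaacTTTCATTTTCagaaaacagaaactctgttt
Ifitm2, chr7:140955978-140956027, minus strand: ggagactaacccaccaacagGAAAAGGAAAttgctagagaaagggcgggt
Isg15, chr4:156200855-156200904, minus strand: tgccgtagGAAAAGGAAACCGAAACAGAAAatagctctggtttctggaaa
Ifit1, chr19:34640784-34640833, plus strand: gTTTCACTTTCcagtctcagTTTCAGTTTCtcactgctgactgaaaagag
Igtp, chr11:58199502-58199551, plus strand: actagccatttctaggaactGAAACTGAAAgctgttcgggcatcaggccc
Irgm2, chr11:58214893-58214942, plus strand: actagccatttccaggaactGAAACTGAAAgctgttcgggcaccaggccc
Gbp2, chr3:142620584-142620633, plus strand: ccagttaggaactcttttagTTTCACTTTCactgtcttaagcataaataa
B2m, chr2:122147528-122147577, plus strand: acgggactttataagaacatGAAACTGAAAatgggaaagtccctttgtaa
The Igtp and Irgm2 windows matched at 48 of 50 bases. Isg15 had 3 cores in its window and Ifit1 had 2, while the remaining windows shown had 1 each.

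Levels of the members spanned from below 1 TPM to about the level of abundant liver mRNAs. A mean of at least 100 TPM was found for 6 members, 10 lay between 10 and 100 TPM, 20 between 1 and 10 TPM, and 3 below 1 TPM. Together the members held 4503, 3622 and 3629 TPM in the CRISPRi libraries, against 4340, 5870 and 4639 TPM in the non-targeting libraries. The 6 most abundant members, B2m, H2-K1, Bst2, Ifitm3, H2-D1 and Ifitm2, held between 90.6% and 94.9% of this sum in each library.

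**Figure D1:**
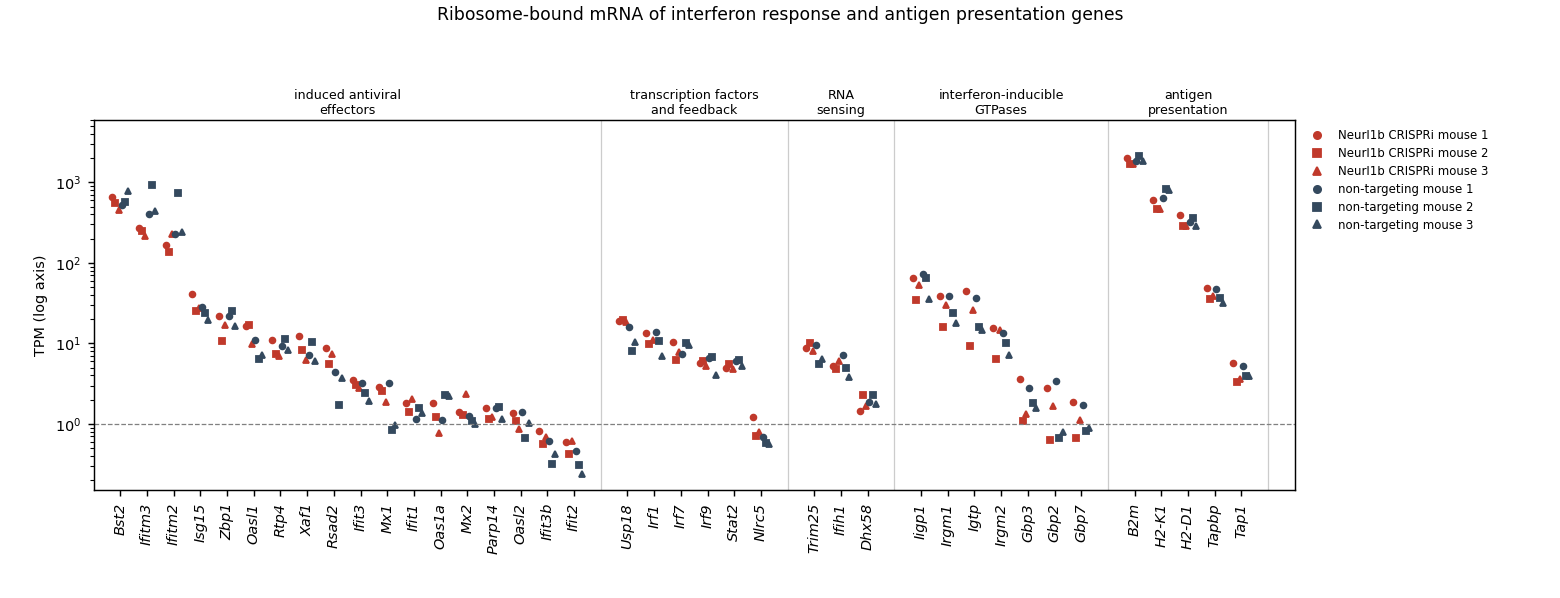
TPM of the 39 members on a log axis, grouped by role, with a point for each mouse (red for Neurl1b CRISPRi, dark blue for non-targeting) and a dashed line at the mean TPM of 1 that a member needed to be tested. The groups lie apart for only a few members, and B2m is highest while Ifit2, Ifit3b and Nlrc5 have means below the line.

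The comparison asked which of these genes differed in ribosome-bound RNA when Neurl1b was repressed. No member passed an adjusted p of 0.05 in limma, fitted on log2(TPM + 1) over 10598 genes, and the lowest adjusted p of a member was 0.310. In the same fit 0.0189% of all tested genes passed, all of them higher in CRISPRi. An unadjusted p below 0.05 was found for 6 of 36 members (16.7%), against 13.3% of all tested genes. These were 3 higher (Rsad2, Usp18 and Oasl1) and 3 lower (Ifitm3, H2-K1 and Ifitm2), where the background was 10.1% higher and 3.19% lower. The groups did not overlap for 6 of 36 members (16.7%), against 17.1% of all tested genes (12.5% higher and 4.57% lower), so both shares are near the background. These were 3 higher (Rsad2, Usp18 and Mx2) and 3 lower (Ifitm2, Ifitm3 and H2-K1). The median log2 fold change of the tested members was 0.04, against 0.18 for all tested genes, with 19 of 36 above 0, against 7846 of 10598. When the libraries were scaled by median of ratios, the medians were -0.15 for the members and -0.0013 for all genes.

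**Figure D2:**
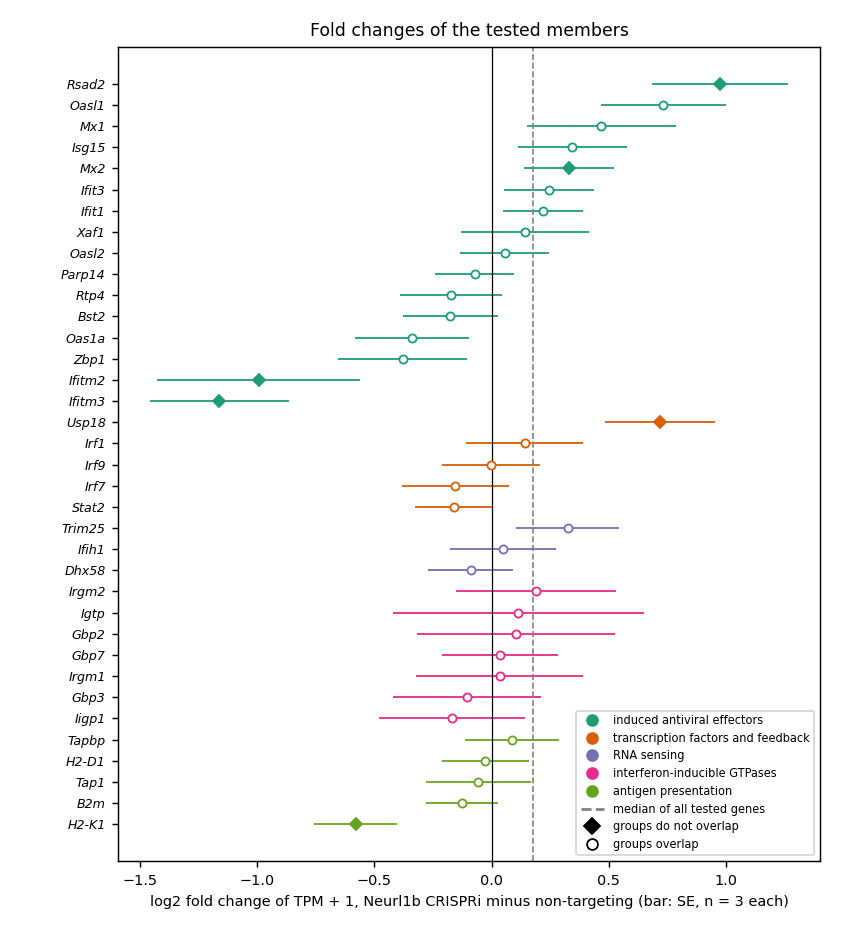
Log2 fold change of TPM + 1 with its SE (limma, 3 mice per group) for the 36 tested members, coloured by role, with filled diamonds where the groups do not overlap and a dashed line at the median of all tested genes (0.18). Rsad2 lies highest at 0.97 and Ifitm3 lowest at -1.16, and the GTPases carry wide bars around 0.

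Among the antiviral effectors the fold changes lay on both sides of 0, with a median log2 fold change of 0.10 over 16 tested. Rsad2 encodes viperin, a radical SAM enzyme that makes a chain-terminating nucleotide. It measured 8.82, 5.49 and 7.43 TPM in the CRISPRi mice, against 4.47, 1.72 and 3.76 TPM in the non-targeting mice. Every CRISPRi mouse was above every non-targeting mouse, with the lowest CRISPRi value 5.49 and the highest non-targeting value 4.47. The means were 7.24 ± 1.67 and 3.32 ± 1.43 TPM (SD, n = 3 each), a ratio of 2.18. Limma put this at 0.97 on the log2(TPM + 1) scale (SE 0.29, unadjusted p = 0.00926, adjusted p = 0.323).

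Oasl1, a 2′-5′-oligoadenylate synthetase-like protein known to restrain translation of Irf7 mRNA in mice, measured 16.4, 17.0 and 9.81 TPM in the CRISPRi mice, against 11.0, 6.43 and 7.24 TPM in the non-targeting mice. CRISPRi mouse 3 lay below non-targeting mouse 1, so the groups overlapped. The log2 fold change was 0.73 (SE 0.27, limma unadjusted p = 0.0242, adjusted p = 0.344). The difference sat mostly in 1 protein-coding transcript of Oasl1, ENSMUST00000112143.4, with 7.68, 5.92 and 3.88 TPM in CRISPRi and 3.43, 0.369 and 0.751 TPM in non-targeting mice. Another, ENSMUST00000031540.11, overlapped at 3.65, 6.23 and 3.28 TPM in CRISPRi and 5.15, 3.57 and 3.22 TPM in non-targeting mice. kallisto divides reads between transcripts of a gene by estimation, so such splits are less certain than the gene's sum. Irf7, the Oasl1 target named above, measured 10.5, 6.15 and 7.76 TPM in CRISPRi and 7.31, 10.2 and 9.68 TPM in non-targeting mice, with overlap.

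Mx2, a dynamin-like antiviral GTPase, measured 1.42, 1.28 and 2.36 TPM in the CRISPRi mice, against 1.26, 1.08 and 0.986 TPM in the non-targeting mice. The groups only just failed to overlap, with CRISPRi mouse 2 beside non-targeting mouse 1, and limma gave a log2 fold change of 0.33 (SE 0.19, unadjusted p = 0.123, adjusted p = 0.440). Without CRISPRi mouse 3 it was 0.16. Many laboratory mouse strains carry Mx1 and Mx2 alleles that give no functional protein. Only 10.8% of the Mx2 and 28.6% of the Mx1 signal was in transcripts annotated as protein coding, and the most abundant coding transcripts of the pair are 96.1% identical over 646 aligned bases, so reads can be divided between them. Mx1 itself measured 2.92, 2.58 and 1.86 TPM in CRISPRi and 3.18, 0.831 and 0.975 TPM in non-targeting mice, where non-targeting mouse 1 was highest of all 6.

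Ifitm3 and Ifitm2 encode membrane proteins that block fusion of enveloped viruses in endosomes, and they had the lowest fold changes of the members. Ifitm3 measured 274, 249 and 217 TPM in the CRISPRi mice, against 408, 917 and 444 TPM in the non-targeting mice. The groups did not overlap, and non-targeting mouse 2 stood far above the other 5 mice. The means were 247 ± 28.4 and 590 ± 284 TPM (SD, n = 3 each), 2.39-fold lower in CRISPRi, with a log2 fold change of -1.16 (SE 0.30, limma unadjusted p = 0.00393, adjusted p = 0.310). Without non-targeting mouse 2 it was -0.79 (SE 0.16, limma adjusted p = 0.431).

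Ifitm2 showed the same mouse at the top. It measured 165, 137 and 227 TPM in the CRISPRi mice, against 228, 743 and 239 TPM in the non-targeting mice. CRISPRi mouse 3 lay beside non-targeting mouse 1, so these groups too were barely apart. The log2 fold change was -0.99 (SE 0.43, limma unadjusted p = 0.0488, adjusted p = 0.375), and -0.44 (SE 0.22, limma adjusted p = 0.772) without non-targeting mouse 2. Both genes have a single transcript in the table, and the transcripts are 82.9% identical over 363 aligned bases. Non-targeting mouse 2 also had the highest hepatocyte, neutrophil and red cell sums. The hepatocyte markers summed to 106826 TPM in that mouse and to at most 68066 TPM in any other, with 4 of 10 higher on average in CRISPRi. The neutrophil markers summed to 2.14, 16.8 and 12.5 TPM in CRISPRi and 7.97, 49.3 and 7.65 TPM in non-targeting mice, with S100a8 and S100a9 making up most of the sum and 2 of 5 markers higher on average in CRISPRi. Ly6g, which defines neutrophils, was at 0 in that mouse. The red cell markers summed to 1567, 490 and 1140 TPM in CRISPRi and 939, 3880 and 1139 TPM in non-targeting mice, with 0 of 5 higher on average in CRISPRi. The part of these markers in the Ifitm values was not tested.

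The remaining antiviral effectors overlapped between the groups. Bst2, or tetherin, which holds budding virions at the cell surface, was the most abundant at 648, 551 and 456 TPM in CRISPRi and 528, 572 and 777 TPM in non-targeting mice. Isg15, the ubiquitin-like modifier, had 41.4, 25.0 and 27.2 TPM in CRISPRi, against 28.6, 23.9 and 19.7 TPM in non-targeting mice, a log2 fold change of 0.34 (SE 0.23, limma unadjusted p = 0.176). CRISPRi mouse 1 alone was far above the rest, and the other CRISPRi mice lay within the non-targeting range. The nucleic acid sensor Zbp1 averaged 16.5 ± 5.63 TPM in CRISPRi and 21.3 ± 4.70 TPM in non-targeting mice (SD, n = 3 each). Among the low members, the RNA-binding Ifit1 averaged 1.77 ± 0.31 TPM in CRISPRi and 1.37 ± 0.21 TPM in non-targeting mice, and the oligoadenylate synthetase Oas1a 1.27 ± 0.53 TPM in CRISPRi and 1.87 ± 0.65 TPM in non-targeting mice. Ifit3 averaged 3.14 ± 0.38 TPM in CRISPRi and 2.52 ± 0.63 TPM in non-targeting mice. Its near copy Ifit3b, 97.8% identical over 1700 aligned bases and with the same 50 bases around the core, averaged 0.689 ± 0.126 TPM in CRISPRi and 0.454 ± 0.153 TPM in non-targeting mice, so the division of reads between the pair is uncertain. Oasl2, Rtp4, Xaf1 and Parp14 had mean ratios of CRISPRi to non-targeting between 0.884 and 1.13. Ifit2, another Ifit gene and below the filter, measured 0.601, 0.427 and 0.606 TPM in CRISPRi and 0.462, 0.314 and 0.239 TPM in non-targeting mice.

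Among the tested transcription factors and feedback regulators, Usp18 stood apart. Usp18 removes Isg15 from proteins and blocks signalling at the type I receptor, so it serves as a brake on the response. It measured 19.0, 19.3 and 18.3 TPM in the CRISPRi mice, against 15.9, 8.13 and 10.4 TPM in the non-targeting mice. The CRISPRi mice were close to each other and all above the non-targeting mice, of which mouse 1 came nearest. The means were 18.8 ± 0.50 and 11.5 ± 3.99 TPM (SD, n = 3 each), a ratio of 1.64, with a log2 fold change of 0.72 (SE 0.23, limma unadjusted p = 0.0147, adjusted p = 0.339).

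The tested activating factors overlapped between the groups. Irf1, a factor that interferon gamma induces, measured 13.5, 9.73 and 11.2 TPM in CRISPRi, against 13.9, 10.7 and 7.07 TPM in non-targeting mice. Irf9, the DNA-binding part of the type I complex, averaged 5.66 ± 0.36 TPM in CRISPRi and 5.79 ± 1.47 TPM in non-targeting mice, and its partner Stat2 5.11 ± 0.44 TPM in CRISPRi and 5.82 ± 0.54 TPM in non-targeting mice. Only 40.6% of the Stat2 signal was in protein-coding transcripts. Nlrc5, the transactivator of class I genes, was below the filter at 1.22, 0.704 and 0.802 TPM in CRISPRi, against 0.686, 0.574 and 0.565 TPM in non-targeting mice. All 3 CRISPRi values of Nlrc5 were above the non-targeting ones, by a small margin at a level whose precision is unknown.

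The RNA sensing members overlapped. Trim25, a ubiquitin ligase that activates the RNA sensor RIG-I, had 8.87, 10.0 and 8.02 TPM in CRISPRi, against 9.50, 5.49 and 6.32 TPM in non-targeting mice. Ifih1, the sensor MDA5, had 5.30, 4.88 and 6.07 TPM in CRISPRi, against 7.26, 4.93 and 3.85 TPM in non-targeting mice. Dhx58, the regulator LGP2, had 1.45, 2.31 and 1.66 TPM in CRISPRi, against 1.87, 2.28 and 1.76 TPM in non-targeting mice. In each gene the groups overlapped, and non-targeting mouse 1 lay inside or above the CRISPRi range.

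The interferon-inducible GTPases varied most within the groups. These are the immunity-related GTPases Igtp, Irgm1, Irgm2 and Iigp1 and the guanylate-binding proteins Gbp2, Gbp3 and Gbp7, which in mice act on membranes around intracellular pathogens and respond strongly to interferon gamma. Igtp measured 44.5, 9.40 and 25.7 TPM in the CRISPRi mice, against 37.0, 15.8 and 14.6 TPM in the non-targeting mice. CRISPRi mouse 1 and non-targeting mouse 1 were the highest of all 6 and CRISPRi mouse 2 the lowest, with a 4.73-fold range among CRISPRi mice and a 2.53-fold range among non-targeting mice. The log2 fold change of Igtp was 0.11 (SE 0.53, limma unadjusted p = 0.835).

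The rest of the family also varied widely between mice of a group. Iigp1, the most abundant, had 64.7, 34.8 and 52.8 TPM in CRISPRi, against 72.7, 65.3 and 35.8 TPM in non-targeting mice. Irgm1 had 38.4, 16.2 and 29.6 TPM in CRISPRi, against 39.2, 24.2 and 18.1 TPM in non-targeting mice. Gbp2 had 2.80, 0.632 and 1.70 TPM in CRISPRi, against 3.45, 0.673 and 0.806 TPM in non-targeting mice. In 7 of 7 GTPases, CRISPRi mouse 1 was highest and mouse 2 lowest of the CRISPRi mice, and mouse 1 was highest of the non-targeting mice. This order was noticed after the values were seen. It held for 12 of 36 tested members (33.3%), these 7 GTPases included, and for 773 of 10598 tested genes (7.29%). The members' share therefore counts the genes in which the order was noticed. The non-targeting part of the order alone, mouse 1 highest, held for 20 of 36 tested members and for 7197 of 10598 tested genes. Its CRISPRi part alone held for 15 of 36 tested members and for 1082 of 10598 tested genes. Summed, the GTPases held 171, 69.2 and 127 TPM in CRISPRi and 170, 119 and 79.0 TPM in non-targeting mice. Their median log2 fold change was 0.04, and the median SD of their log2 values was 0.61 in CRISPRi and 0.54 in non-targeting mice, against 0.13 in CRISPRi and 0.30 in non-targeting mice over all tested genes. The transcripts of Igtp and Irgm2 are 84.0% identical over 682 aligned bases, and those of Gbp3 and Gbp7 80.5% identical over 1695.

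**Figure D3:**
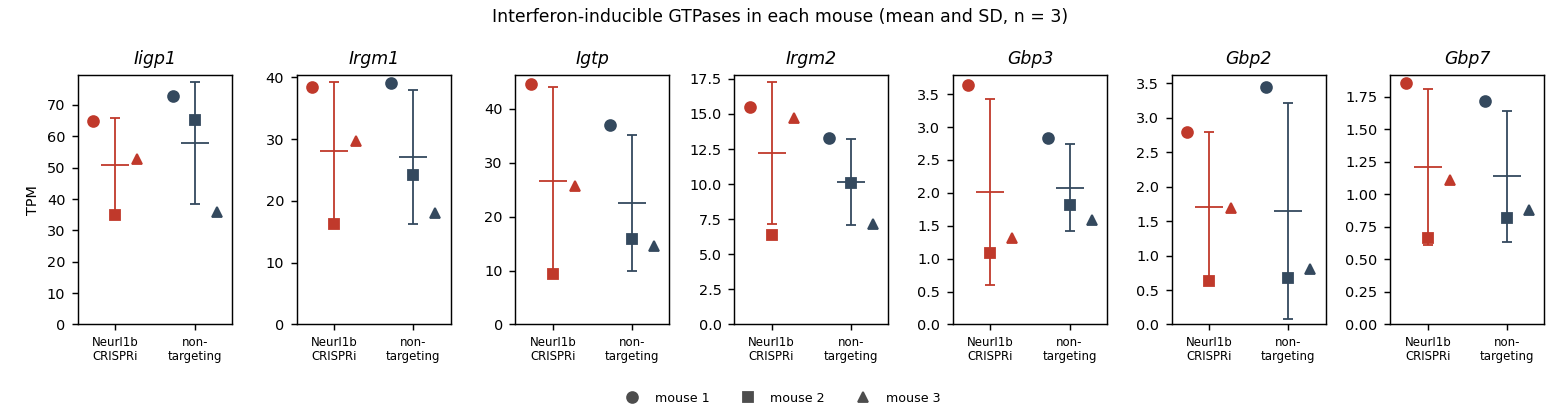
TPM of the 7 interferon-inducible GTPases in each mouse, with a panel per gene, Neurl1b CRISPRi left and non-targeting right, and bars for mean and SD (n = 3). In every panel mouse 1 is the highest of its group, and CRISPRi mouse 2 is the lowest CRISPRi mouse, as for Igtp at 44.5 and 9.40 TPM. Non-targeting mouse 1 is the highest of its group for 7197 of 10598 tested genes.

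The same order of mice appeared in 16 of 93 tested genes of the pathway lists, against 773 of 10598 tested genes (7.29%). Targets of interferon gamma were among the 16. The range among CRISPRi mice ran from 1.04-fold in Tbk1 to 17.9-fold in Tgtp1, so in some of them the order rests on small differences. Tgtp1, another immunity-related GTPase, had 17.1, 0.953 and 5.78 TPM in CRISPRi, against 17.2, 3.37 and 3.21 TPM in non-targeting mice. Cxcl9, a chemokine that draws T cells, had 11.5, 1.27 and 3.05 TPM in CRISPRi, against 16.2, 5.43 and 5.87 TPM in non-targeting mice. The order was shared by the GTPases Ifi47 and Gbp6 and by the immunoproteasome subunits Psmb8 and Psmb10. The markers of Kupffer cells and macrophages summed to 196, 132 and 173 TPM in CRISPRi and 89.0, 115 and 163 TPM in non-targeting mice. They shared the order among CRISPRi mice, but non-targeting mouse 1 had the lowest sum of its group. The 9 markers of T and NK cells summed to 2.75, 1.27 and 2.25 TPM in CRISPRi and 2.26, 2.94 and 2.67 TPM in non-targeting mice, with 6 of 9 higher on average in CRISPRi, none at 0 in a library, and non-targeting mouse 1 again lowest of its group. Their part in the GTPase values was not tested.

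In antigen presentation, H2-K1 alone separated the groups among 5 members, whose median log2 fold change was -0.06. H2-K1 encodes a classical class I heavy chain, which presents peptides to cytotoxic T cells. It measured 598, 462 and 460 TPM in the CRISPRi mice, against 637, 821 and 811 TPM in the non-targeting mice. All 3 CRISPRi values were below all non-targeting values, with CRISPRi mouse 1 and non-targeting mouse 1 nearest to each other. The means were 507 ± 79.3 and 756 ± 104 TPM (SD, n = 3 each), 1.49-fold lower in CRISPRi, with a log2 fold change of -0.58 (SE 0.18, limma unadjusted p = 0.0108, adjusted p = 0.330).

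The other heavy chain and the partner of both did not separate. H2-D1, the second classical heavy chain here, measured 391, 283 and 283 TPM in CRISPRi, against 319, 364 and 285 TPM in non-targeting mice. B2m, the light chain that all class I heavy chains need to reach the surface, measured 2004, 1681 and 1666 TPM in CRISPRi, against 1833, 2147 and 1848 TPM in non-targeting mice. Within a library, the ratio of H2-K1 to B2m was 0.298, 0.275 and 0.276 in CRISPRi, against 0.347, 0.383 and 0.439 in non-targeting mice (exact two-sided permutation p = 0.1, the smallest possible). That of H2-D1 to B2m was 0.195, 0.168 and 0.170 in CRISPRi, against 0.174, 0.169 and 0.154 in non-targeting mice (exact p = 0.5). Ratios within a library do not depend on the scaling between libraries. H2-K1 was singled out after its values were seen, and its ratio reuses those values. The ratio is therefore no separate support for the difference in H2-K1. Tap1, a subunit of the peptide transporter, averaged 4.25 ± 1.34 TPM in CRISPRi and 4.39 ± 0.77 TPM in non-targeting mice. Tapbp, or tapasin, which holds class I molecules at the transporter, averaged 40.8 ± 6.63 TPM in CRISPRi and 38.5 ± 7.51 TPM in non-targeting mice.

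The H2-K1 signal was divided over 16 transcripts, and only 57.7% of it was in those annotated as protein coding. The most abundant, ENSMUST00000238021.2 with 39.7% of the gene's TPM, is a retained-intron transcript of 457 bases, at 194, 164 and 154 TPM in CRISPRi and 227, 369 and 396 TPM in non-targeting mice. The coding transcript ENSMUST00000236469.2 had 33.9, 36.4 and 50.5 TPM in CRISPRi, against 47.0, 138 and 159 TPM in non-targeting mice. These 2 transcripts, chosen after their values were seen, held together 228, 200 and 205 TPM in CRISPRi and 274, 507 and 555 TPM in non-targeting mice. The other 14 transcripts of H2-K1 held 371, 262 and 255 TPM in CRISPRi and 362, 314 and 255 TPM in non-targeting mice, and overlapped. The coding transcript ENSMUST00000025181.18 overlapped too, at 225, 156 and 153 TPM in CRISPRi and 224, 183 and 140 TPM in non-targeting mice. The retained-intron transcript ENSMUST00000236757.2, also among the 14, was higher in CRISPRi without overlap. It had 20.1, 19.2 and 19.8 TPM in CRISPRi, against 12.2, 7.46 and 5.63 TPM in non-targeting mice. The sum of all 8 coding transcripts of H2-K1 was 381, 278 and 283 TPM in CRISPRi and 394, 443 and 406 TPM in non-targeting mice, still apart. H2-K1 and H2-D1 transcripts are 88.2% identical over 1513 aligned bases, so reads can be divided between these genes as well as within them.

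**Figure D4:**
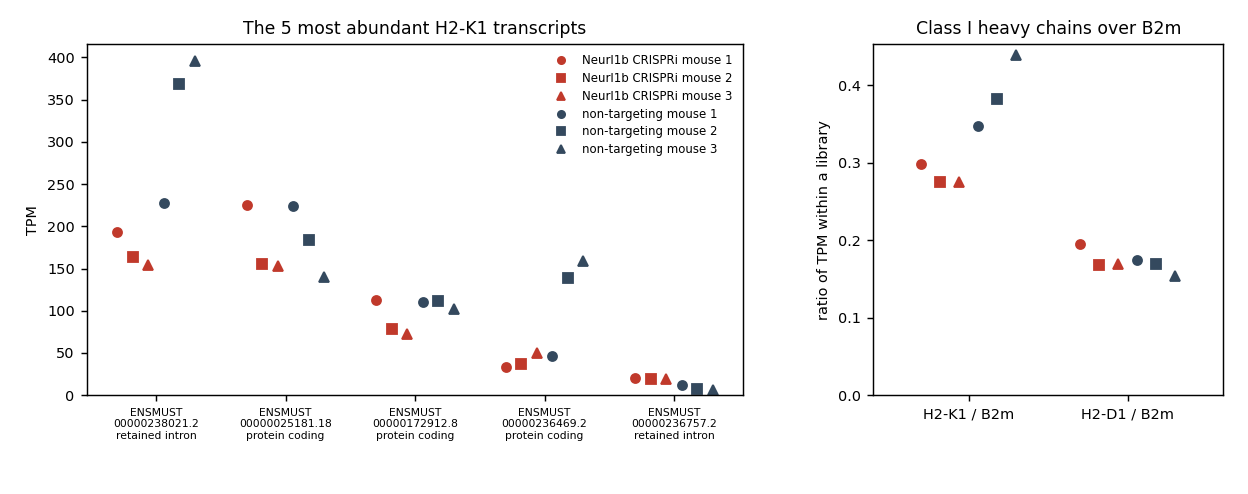
Left, TPM of the 5 most abundant H2-K1 transcripts in each mouse, with their annotated type. Right, the ratio of H2-K1 and of H2-D1 to B2m within each library. CRISPRi mice (red) lie below non-targeting mice (dark blue) for the retained-intron transcript at the left and for H2-K1 over B2m, and overlap with them for ENSMUST00000025181.18 and for H2-D1 over B2m. For the less abundant retained-intron transcript ENSMUST00000236757.2 the CRISPRi mice lie above the non-targeting mice.

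Further class I genes were described from a list of 23, of which 20 were tested and had a median log2 fold change of -0.08. An unadjusted p below 0.05 was found for 1 higher and 2 lower, 15% of the list, against 13.3% of all tested genes (10.1% higher and 3.19% lower). The groups did not overlap for 1 higher and 3 lower (20%), against 17.1% of all tested genes. H2-Q10, the most abundant of the list, measured 1684, 1782 and 1742 TPM in CRISPRi, against 1826, 2554 and 2070 TPM in non-targeting mice, without overlap. Its log2 fold change was -0.29 (limma unadjusted p = 0.109). Its ratio to B2m overlapped (exact two-sided permutation p = 0.3). H2-Q7, a Qa-2 heavy chain, measured 15.7, 10.1 and 6.90 TPM in CRISPRi, against 25.0, 32.5 and 25.1 TPM in non-targeting mice, without overlap. Its log2 fold change was -1.32 (SE 0.27, limma unadjusted p = 0.00118, adjusted p = 0.259). H2-Q6, 94.2% identical to H2-Q7 over 637 aligned bases, had a log2 fold change of -0.78 (limma unadjusted p = 0.00804). H2-Q1 stood on the other side, at 133, 128 and 125 TPM in CRISPRi, against 106, 46.3 and 54.6 TPM in non-targeting mice, with a log2 fold change of 0.99 (SE 0.28, limma unadjusted p = 0.00796, adjusted p = 0.323). Psmb9, an immunoproteasome subunit, overlapped and had a log2 fold change of -0.59 (limma unadjusted p = 0.0549). The divided reads noted for H2-K1 apply to these genes too. Of 11 class II genes, 6 were tested and overlapped. H2-Aa, a class II chain, had 18.9, 11.8 and 12.1 TPM in CRISPRi, against 15.9, 12.3 and 26.3 TPM in non-targeting mice, and Cd74, the invariant chain, 59.1, 32.1 and 38.4 TPM in CRISPRi, against 48.6, 27.0 and 52.0 TPM in non-targeting mice.

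Upstream of the members, the ligands were near the limit of the table. Of 21 interferon genes, 18 were listed at 0 in all 6 libraries. Ifng was listed at 0.0253 TPM in non-targeting mouse 2 and at 0 in the other 5, Ifnk reached 0.283 TPM in CRISPRi mouse 1, and Ifnz was listed at 0.0595 and 0.0534 TPM in non-targeting mice 2 and 3. The depth behind such values is unknown.

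The receptors were all present, and none of the 12 tested genes for receptors and JAK-STAT signalling had an unadjusted p below 0.05 in limma. Ifnar1, a chain of the type I receptor, had 6.09, 5.80 and 5.55 TPM in CRISPRi, against 5.46, 5.31 and 4.79 TPM in non-targeting mice, without overlap. Its partner Ifnar2 had 78.4, 70.3 and 61.5 TPM in CRISPRi, against 66.8, 72.4 and 69.6 TPM in non-targeting mice, with overlap. The interferon gamma receptor chains averaged 8.90 ± 1.75 TPM in CRISPRi and 7.25 ± 1.13 TPM in non-targeting mice for Ifngr1, and 10.9 ± 0.69 TPM in CRISPRi and 9.80 ± 1.05 TPM in non-targeting mice for Ifngr2. Of the type III receptor, Il10rb averaged 4.79 ± 1.22 TPM in CRISPRi and 3.91 ± 0.26 TPM in non-targeting mice, and Ifnlr1 was below the filter at 0.345 ± 0.061 TPM in CRISPRi and 0.244 ± 0.058 TPM in non-targeting mice (SD, n = 3 each). The groups did not overlap, higher in CRISPRi, for 4 of the 12 (33.3%), against 12.5% of all tested genes. These were Ifnar1, the kinases Jak2 and Tyk2, and Ptpn6, a phosphatase that restrains the pathway. All 12 had a log2 fold change above 0 and the list's median was 0.20, close to the 0.18 of all genes, and with median-of-ratios scaling the list's median was 0.0096.

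Other sensors and interferon-stimulated genes were counted in the same way. The 17 tested genes of nucleic acid sensing had a median log2 fold change of 0.13. An unadjusted p below 0.05 in limma was found for Ddx58 and Tlr3 (higher) and Irf5 (lower). That is 17.6% of the list, against 13.3% of all tested genes (10.1% higher and 3.19% lower). The groups did not overlap for 4 of the 17 (23.5%), against 17.1% of all tested genes (12.5% higher and 4.57% lower). These were 2 higher (Tlr3 and Ikbke) and 2 lower (Irf5, and Irf2 at a log2 fold change of -0.35). Irf5, a factor downstream of Toll-like receptors, had 2.25, 1.43 and 1.25 TPM in CRISPRi, against 7.44, 7.56 and 2.77 TPM in non-targeting mice. The groups did not overlap, although non-targeting mouse 3 lay close to the CRISPRi range, and the log2 fold change was -1.31 (SE 0.33, limma unadjusted p = 0.00368, adjusted p = 0.310). Ddx58, the sensor RIG-I, had a log2 fold change of 0.49, and Tlr3, a receptor for double-stranded RNA, of 0.51. The kinase Ikbke had 0.43 with an unadjusted limma p of 0.0661. Of 38 further interferon-stimulated genes tested, with a median of 0.13, only Trim14, an adaptor of mitochondrial antiviral signalling, had an unadjusted p below 0.05 (log2 fold change 0.85, SE 0.37, limma unadjusted p = 0.0466). That is 2.63% of the list, against 13.3% of all tested genes. The groups did not overlap for 2 of the 38 (5.26%), both higher, against 17.1% of all tested genes. Apol9b, Znfx1 and Plac8 came next, with log2 fold changes of -0.42, 0.35 and 0.33. When scaled by median of ratios, the median was -0.08 for the sensing list and -0.02 for the further genes.

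Members with and without the promoter element had fold changes on both sides of 0. The 17 tested members with the response element core had a median log2 fold change of 0.04, 10 above 0 and 7 below, and ranged from Ifitm3 at -1.16 to Rsad2 at 0.97. The 11 tested members with a promoter entry and no core had a median of 0.06, 6 above 0 and 5 below. H2-K1 and Oasl1 are among those without the core in this window, which says only that these letters are not in these 300 bases. Of the windows shown above, those of Rsad2 and Ifitm2 each hold 1 core, while the fold changes lie on opposite sides of 0.

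The values depended on which control mouse was in the fit. Without non-targeting mouse 1, 7 of 35 tested members (20%) passed an adjusted p of 0.05 in limma, where 25.3% of all tested genes passed. They were Rsad2 at 1.17, Usp18 at 0.96, Oasl1 at 0.94, Mx1 at 0.85 and Trim25 at 0.53, all higher in CRISPRi, and Ifitm3 at -1.37 and H2-K1 at -0.70, lower in CRISPRi. In the background 23.1% were higher and 2.24% lower. When the libraries were also scaled by median of ratios, 2 of 35 members passed, both lower in CRISPRi, Ifitm3 at -1.73 and H2-K1 at -1.05, where 4.48% of all tested genes passed (1.74% higher and 2.74% lower). Array weights, which give each mouse a weight by its distance from its group, let 8 of 36 members pass (22.2%), where 20.9% of all tested genes passed (18.5% higher and 2.33% lower). These were Oasl1 at 1.05, Rsad2 at 0.96, Usp18 at 0.91, Mx1 at 0.80, Trim25 at 0.56, H2-K1 at -0.71, Ifitm3 at -1.29 and Ifitm2 at -1.40. Leaving out any other single mouse left no member past the threshold. The groups were apart for 12 members without non-targeting mouse 1, where 60.4% of all tested genes were apart, and for 13 members when the scaling was changed as well, where 49.5% were. They were apart for 11 members without CRISPRi mouse 1, where 21.0% of all tested genes were apart. Without CRISPRi mouse 2 they were apart for 10 members, where 22.2% of all tested genes were. Of the list genes above, H2-Q1 at 1.34, Trim14 at 1.27, Ddx58 at 0.67, Znfx1 at 0.45 and H2-Q7 at -1.38 also passed without non-targeting mouse 1. This mouse is the control nearest to the CRISPRi mice in Usp18, Rsad2, Oasl1, Mx2, H2-K1, Ifitm3 and Ifitm2. Over all tested genes, the median-of-ratios scaling factor of its library was 1.12. The factor was 1.05 to 1.09 in the CRISPRi libraries, and 0.848 and 0.838 in non-targeting mice 2 and 3.

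**Figure D5:**
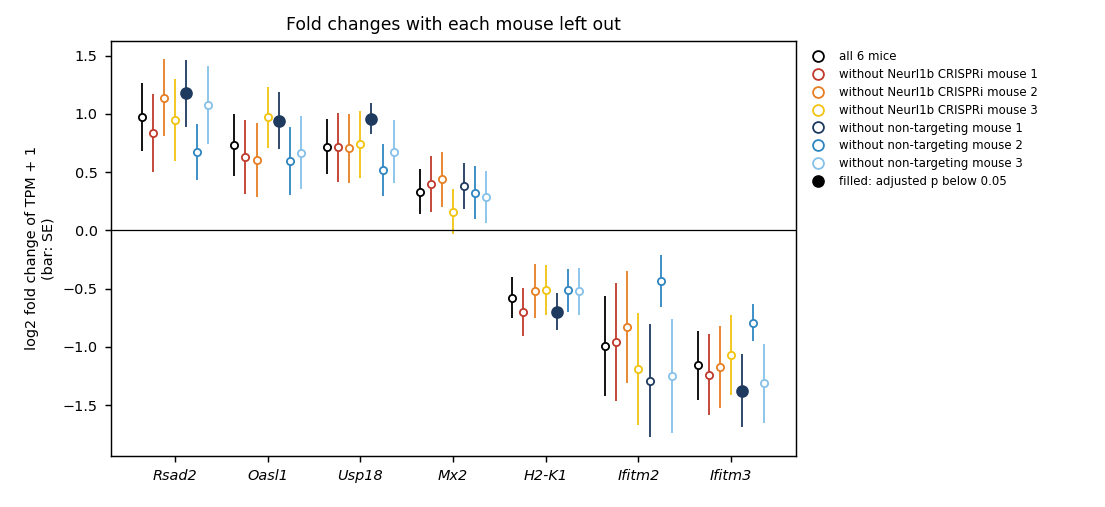
Log2 fold change of TPM + 1 with its SE for the 7 members with an unadjusted p below 0.05 or with groups apart, with all 6 mice (black) and with each mouse left out, and filled points where the limma adjusted p is below 0.05. The points keep their side of 0 throughout, Ifitm2 and Ifitm3 come closest to 0 without non-targeting mouse 2 (-0.44 and -0.79), and filled points appear only without non-targeting mouse 1.

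The other 29 tested members neither separated the groups nor had an unadjusted p below 0.05 in limma. Their log2 fold changes ran from -0.38 to 0.47 with SEs of 0.15 to 0.53, and the smallest unadjusted p was 0.175. With errors of this size, a miss of the threshold does not show that the levels were equal.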

How the data were processed

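Ribosome-bound, polyadenylated RNA from 6 livers was analysed, and the titles gave the group and mouse number. The authors deposited TPM for 117486 transcripts, estimated with kallisto on build mm39, per the submitters' processing notes. Its version and transcript set were not given in the sources used here. Every library sums to 1000000 TPM, so depth is unknown and no interval is given.

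TPM were summed by symbol, leaving out 168 transcripts without one. The 10598 symbols with a mean of at least 1 TPM were tested on log2(TPM + 1), a scale that understates changes of low genes, with limma 3.58.1 in R 4.3.3 (two-sided, prior with a trend, p adjusted after Benjamini-Hochberg, threshold 0.05), as Neurl1b CRISPRi minus non-targeting. Ratios of means are of TPM. Exact two-sided permutation tests served single values. Transcript types, lengths and similarity (blastn 2.17.0) come from GENCODE vM21 on GRCm38, another build, so no coordinates were taken from it. Promoters are from RefSeq.

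The members and lists were chosen with earlier results of these data known. All members may be named; values per library are given where groups do not overlap, where the unadjusted p is below 0.05, and for the 3 most abundant tested members of each role, and up to 4 genes of a list are named by smallest p. Some further members and list genes are given with values beside these. Other settings tried were pseudocounts of 0.1 and 5, a mean of at least 5 TPM or no filter, median-of-ratios scaling, quantile normalization, TPM rescaled without mitochondrial genes, Fah, Rpl10a and the 10 most abundant genes, other priors, array weights, a replicate block, each mouse left out, a test per transcript and an adjusted p of 0.1.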

Additional observations from a re-analysis of the deposited data

How the results depend on the processing

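In limma, 2 of all tested genes passed higher in CRISPRi and 0 lower. The higher count was 0 with a pseudocount of 5, 0 without the filter, 0 with quantile normalization and 1 with a mean TPM of at least 5, while array weights gave 1963 higher and 247 lower. Leaving out each mouse in turn gave 0 to 2436 higher and 0 to 237 lower, and leaving out non-targeting mouse 1 with median-of-ratios scaling gave 184 higher and 289 lower. At an adjusted p of 0.1, 1 gene passed lower. The count of members past the threshold was 0 of 36 with all mice and 0 to 7 with each mouse left out. It was 8 with array weights (5 higher and 3 lower, against 20.9% of all genes) and 2 without non-targeting mouse 1 with median-of-ratios scaling, and 0 in the other settings, the test per transcript and an adjusted p of 0.1 included. The members whose groups do not overlap numbered 6, from 5 to 7 in the settings that keep all mice, 7 to 12 with each mouse left out, and 13 without non-targeting mouse 1 with median-of-ratios scaling. Without non-targeting mouse 1 they were 12 of 35 tested members, where 60.4% of all tested genes did not overlap. They were 11 without CRISPRi mouse 1, where 21.0% of all tested genes did not overlap. Without CRISPRi mouse 2 they were 10, where 22.2% of all tested genes did not overlap. The 13 stand beside 49.5% of all tested genes. The members' median log2 fold change stayed between -0.16 and 0.11 in the alternatives run, within the 0.21 SD between mice. The members with an unadjusted p below 0.05 or with groups apart kept their direction in every alternative run. The mouse number as a replicate block gave 2 genes higher, 0 lower and 0 members. Same-numbered mice deviated with correlations of 0.061, -0.096 and -0.277, which show no pairing of the samples by number. With so few mice per group, these values cannot decide whether the numbers pair them. The cause of these shifts was not tested. Depth is unknown, which limits what can be said of members near 1 TPM.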
